A study of Arabidopsis thaliana with 40 samples.

Results

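The genes described are the 7 Arabidopsis thaliana genes for ferritins and vacuolar iron transporter-like proteins: FER1 (AT5G01600), FER2 (AT3G11050), FER3 (AT3G56090), FER4 (AT2G40300), VTL1 (AT1G21140), VTL2 (AT1G76800) and VTL5 (AT3G25190). They were chosen by locus code, with earlier results of these data known, and all 7 were among the 27655 loci of each deposited table. Messenger RNA was sequenced from roots and from shoots of seedlings of 5 genotypes, with 4 libraries per genotype and tissue and 40 libraries in all. The line bz1728 is a double mutant with T-DNA insertions for BZIP17 and BZIP28, membrane-bound bZIP factors that act in the endoplasmic reticulum stress response. The line nobiro6 is labelled as a suppressor mutant in the bz1728 background, which its BZIP28 reads, given below, go against in part. The lines nbr6-t1 and taf12-t1 each carry a T-DNA insertion in an otherwise wild-type background, at TAF12B and at TAF12, which encode subunits of the general transcription factor TFIID. The wild type (wt) was Col-0. All seedlings were raised on half-strength agar medium at 22 °C with 16 h of light, after 3 d at 4 °C, and their age is labelled both as 12 d at harvest and as 13 d after sowing. No label says that the 4 repeats came from separate plates or batches, so the p-values measure the spread between these libraries, which may be technical. Each T-DNA genotype is 1 line per gene or gene pair.

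Ferritins are plastid proteins, FER4 also a mitochondrial one, that assemble into hollow shells and store iron in a non-reactive form. FER1, FER3 and FER4 are the forms of vegetative tissue, and FER2 is known as the seed form. The VTL proteins are relatives of the vacuolar iron transporter VIT1 that move iron into the vacuole or out of the cytosol. Transcripts of FER1, FER3, FER4 and the VTL genes are known to rise with iron supply and to fall under iron deficiency, and the transcription factors ILR3 and PYE are known repressors of several of them.

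Library totals ran from 2663664 to 8201232 counts in root and from 3423487 to 12896653 in shoot. BZIP17 had 2.14 to 3.67 TPM (a transcript level scaled for transcript length and for library size) in bz1728 root, against 26.6 to 29.5 TPM in wt root. BZIP28 was at 0 in all 8 bz1728 libraries, but the libraries labelled nobiro6 held 5.56 to 10.4 TPM of it in root and 12.5 to 15.3 TPM in shoot, against 41.0 to 46.9 TPM in wt root and 13.0 to 19.1 TPM in wt shoot, so nobiro6 against bz1728 is also a comparison of libraries with and without BZIP28 reads. In nbr6-t1, TAF12B was below every wt library in shoot (5.18 to 7.67 TPM, against 18.3 to 22.4 TPM in wt) but not in root (29.6 to 35.3 TPM, against 24.5 to 30.9 TPM in wt), and in taf12-t1, TAF12 was above every wt library in root (12.4 to 17.9 TPM, against 7.34 to 8.23 TPM in wt) and below every wt library in shoot (3.16 to 4.64 TPM, against 5.02 to 6.19 TPM in wt). Of the 4 mutated genes, 3 were lower and none higher in nobiro6 than in wt in root (median log2 fold change -1.68). The same counts held in shoot (median -0.84). Over all genes, 18.9% were higher and 23.9% lower in root, and 12.1% were called in either direction in shoot. The tissue labels fitted their markers: 5 root markers summed to 427 to 841 TPM in root and 0.465 to 3.40 TPM in shoot, and 5 green-tissue markers to 26852 TPM or more in shoot and 112 to 533 TPM in root. In root the green-tissue sum was 132 to 289.7 TPM in bz1728, 286 to 369 TPM in nobiro6, 478 to 533 TPM in nbr6-t1 and 112 to 180.4 TPM in taf12-t1, against 353 to 383 TPM in wt; all 5 of these markers were detected in every group. The root marker sum in root was 480 to 649 TPM in bz1728 and 586 to 654 TPM in nobiro6. It was 674 to 841 TPM in nbr6-t1 and 427 to 549 TPM in taf12-t1, against 670 to 751 TPM in wt. In bz1728 root against wt, 2 of the 5 root markers rose and 2 fell, where 18.2% of all root genes rose and 20.7% fell. The part of either marker set in the root results was not tested. As these are bulk samples, fewer cells of a type and less RNA per cell cannot be told apart.

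The members shared little sequence with other loci. Of the 31-base words of their RefSeq transcripts, FER1, VTL2 and VTL5 shared none with another locus, FER3 shared 0.16% and VTL1 2.34%. FER2 shared 2.68%, all with AT3G61010, and FER4 7.37%, nearly all with the neighbouring locus AT2G40290, whose reads could not be told apart from those of FER4 there.

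In wild-type plants the set split by tissue. VTL5, VTL1 and, among the ferritins, FER2 were higher in root than in shoot, and FER4 was lower in root, while the call for FER1 and the direction for FER3 depended on the scale used. VTL5 had 649, 678, 702 and 709 TPM in the 4 wt roots, against 3.00, 3.60, 2.52 and 2.86 TPM in the 4 wt shoots. It was among the most abundant root transcripts, with 122 of 27655 loci above it, and stood below 14984 loci in shoot. VTL1 had 50.3, 38.0, 50.7 and 41.7 TPM in wt root, against 0.572, 1.31, 2.46 and 2.29 TPM in wt shoot. VTL2 had 16.7, 9.69, 16.1 and 15.9 TPM in wt root, against 4.47, 3.39, 5.98 and 7.41 TPM in wt shoot. In TPM, every wt root library was above every wt shoot library for each of these VTL genes. On the TMM-scaled counts of the test below, this held for VTL5 and VTL1, while VTL2 overlapped.

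FER1 was the most abundant ferritin in both tissues, with 134, 112, 169 and 163 TPM in wt root, against 148, 117, 479.8 and 179 TPM in wt shoot. FER2 had 6.79, 6.20, 12.9 and 10.8 TPM in wt root, against 0.947, 1.24, 0.749 and 2.02 TPM in wt shoot, where the 4 libraries held 40 FER2 counts in all. The seed form was thus detected in every root library. FER3 had 52.0, 51.5, 48.3 and 55.6 TPM in wt root, against 49.7, 38.9, 62.3 and 45.9 TPM in wt shoot, and the tissues overlapped. FER4 had 10.9, 12.4, 14.0 and 12.4 TPM in wt root, against 29.9, 35.8, 52.5 and 44.7 TPM in wt shoot, without overlap. In edgeR's quasi-likelihood test over all 40 libraries, with counts scaled by TMM factors (which set the tissues to a common scale through genes of moderate change), 6 of the 7 members passed an adjusted p of 0.05, 3 of them higher in root and 3 lower, where 39.2% of all 20015 genes tested passed as higher and 39.8% as lower. The log2 fold changes of root over shoot, with their approximate standard errors, were 6.78 ± 0.27 for VTL5, 3.62 ± 0.26 for VTL1, 1.87 ± 0.30 for FER2, -0.99 ± 0.11 for FER3, -1.76 ± 0.33 for FER1 and -2.78 ± 0.17 for FER4, and 0.37 ± 0.36 for VTL2, which did not pass. These values depend on the scale: on log2(TPM + 1), tested with limma, the median of all genes was shifted by 0.93, FER3 read 0.09 in place of -0.99, and VTL2 passed at 1.32 (adjusted p = 0.00344). On that scale FER1 read -0.46 and did not pass (adjusted p = 0.157).

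Across the 5 genotypes, the main pattern in root was a fall of the VTL transcripts in bz1728, where no ferritin passed the test. Of the 7 members, 3 fell and none rose in bz1728 against wt (18.2% of the 18745 root genes tested rose and 20.7% fell), and the 3 were VTL1, VTL2 and VTL5. Set against bz1728, nobiro6 had 2 members that rose, VTL5 and FER2, and none that fell (12.8% of genes rose and 18.9% fell). In nobiro6 against wt, FER2 rose and VTL1 and VTL5 fell (18.9% of genes rose and 23.9% fell). In nbr6-t1 against wt, FER2 and FER4 rose and none fell (6.96% of genes rose and 13.5% fell). In taf12-t1 against wt, FER2 and FER3 rose and none fell (19.5% of genes rose and 19.8% fell). With so many genes changed across the transcriptome, counts of 1 to 3 members in 7 are not in themselves a result about the set. The median log2 fold change of the 7 genes was -0.22 in bz1728 against wt, 0.47 in nobiro6 against bz1728, -0.16 in nobiro6, -0.11 in nbr6-t1 and 0.28 in taf12-t1 against wt, where the medians over all root genes ran from 0.0010 to 0.028.

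**Figure D1:**
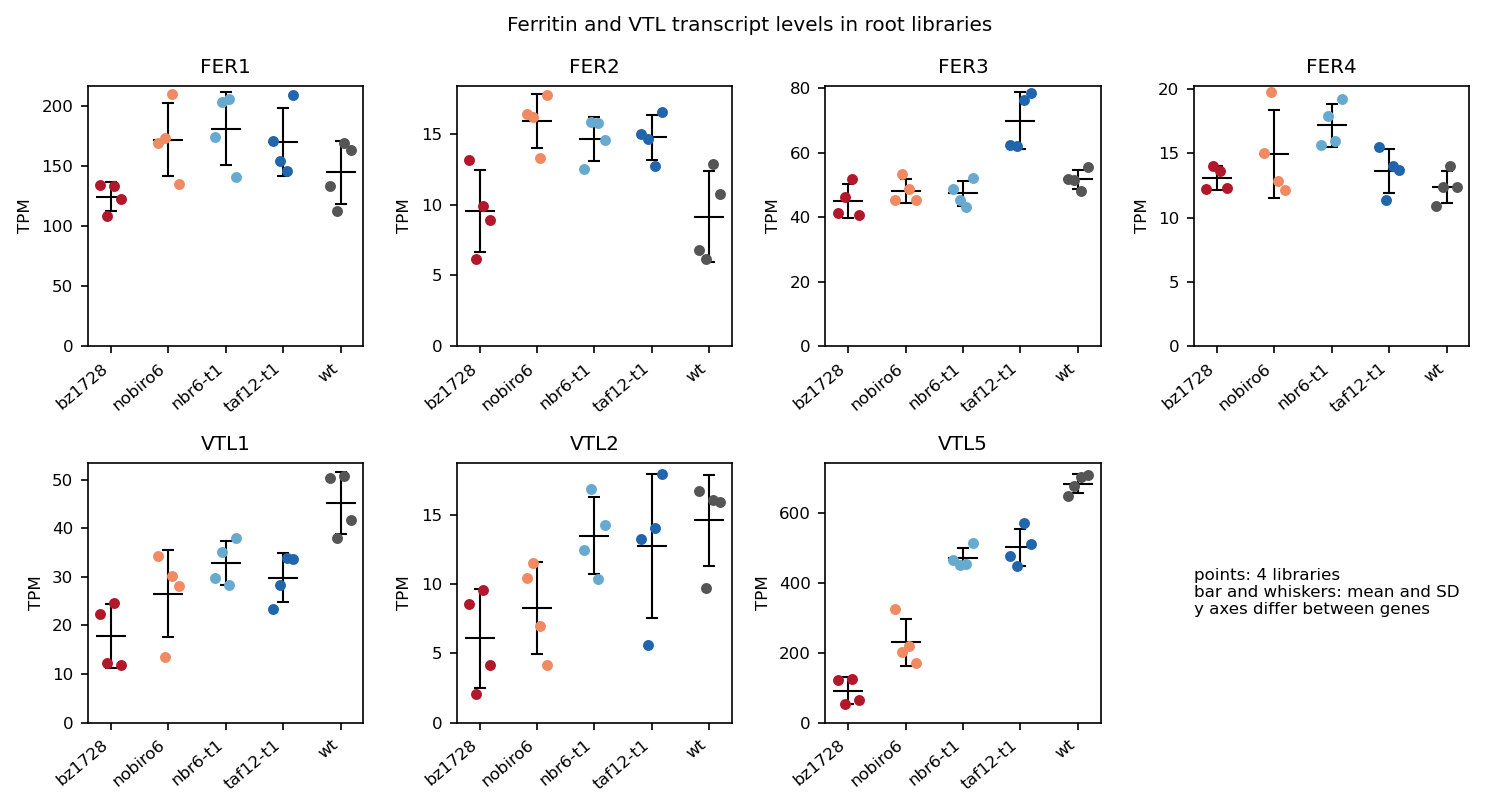
TPM of each member in root (linear axes from 0, a scale per gene) for the mutant lines and, at the right, wt; points are the 4 libraries, bars the mean and whiskers the SD. VTL5 averaged 91.6 TPM in bz1728, 229.8 in nobiro6, 471 in nbr6-t1 and 502 in taf12-t1, against 684 in wt, while FER1 stayed between 108 and 209.8 TPM in all libraries.

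VTL5 had the largest log2 fold change of the 7 genes in bz1728 against wt. Its root libraries read 123, 54.0, 126 and 63.9 TPM in bz1728, 326, 203, 219 and 171 TPM in nobiro6, 467, 451, 453 and 514 TPM in nbr6-t1 and 476, 447, 572 and 511 TPM in taf12-t1, against 649, 678, 702 and 709 TPM in wt. Each mutant group lay below wt without overlap, bz1728 lay below nobiro6 without overlap, nobiro6 lay below both TFIID lines, and nbr6-t1 and taf12-t1 overlapped. As a share of the wt mean, VTL5 stood at 13.4% in bz1728, 33.6% in nobiro6, 68.9% in nbr6-t1 and 73.3% in taf12-t1. The log2 fold change in bz1728 against wt was -2.90 ± 0.23 (adjusted p = 3.32e-08, edgeR), and 92 of the 18745 genes tested had a lower one. In nobiro6 against wt it was -1.63 ± 0.21 (adjusted p = 1.34e-05, edgeR). Relative to bz1728, nobiro6 gave 1.27 ± 0.23 (adjusted p = 0.000508, edgeR), so VTL5 in the suppressor line was above bz1728 and still below wt. The comparisons with bz1728 share the bz1728 libraries, and those with wt share the wt libraries, so errors in a shared group enter each of them.

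The lower VTL5 levels of the TFIID lines did not pass the test that pools the spread of all 20 root libraries. Against wt the log2 fold change was -0.57 ± 0.20 in nbr6-t1 (adjusted p = 0.0596, edgeR) and -0.30 ± 0.20 in taf12-t1 (adjusted p = 0.258, edgeR). The green-tissue markers, given above, were lowest in taf12-t1 and highest in nbr6-t1, and their part in the VTL5 values was not tested. The coefficient of variation of VTL5 was 41.4% in bz1728, 29.4% in nobiro6, 6.23% in nbr6-t1 and 10.7% in taf12-t1, against 3.98% in wt. Fitted with only the 8 libraries of the 2 genotypes compared, both passed in edgeR, with a log2 fold change of -0.58 in nbr6-t1 (adjusted p = 3.06e-07) and of -0.31 in taf12-t1 (adjusted p = 0.000782).

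VTL1 followed a similar order at a lower level. It read 22.3, 12.4, 24.6 and 12.0 TPM in bz1728, 34.3, 13.6, 30.2 and 28.2 TPM in nobiro6, 29.7, 35.1, 28.4 and 38.0 TPM in nbr6-t1 and 23.4, 28.4, 33.9 and 33.6 TPM in taf12-t1, against 50.3, 38.0, 50.7 and 41.7 TPM in wt. In TPM, the bz1728, nobiro6 and taf12-t1 libraries lay below every wt library, and the highest nbr6-t1 library met the lowest wt library. The mutant groups overlapped with each other except bz1728 with nbr6-t1. On the TMM-scaled counts of the test, bz1728, nobiro6 and nbr6-t1 lay below every wt library and taf12-t1 overlapped with wt. VTL1 fell, with a log2 fold change of -1.31 ± 0.23 in bz1728 against wt (adjusted p = 0.000152, edgeR) and of -0.84 ± 0.23 in nobiro6 against wt (adjusted p = 0.00719, edgeR). The value for nobiro6 against bz1728 was 0.48 ± 0.26 and did not pass (adjusted p = 0.186, edgeR). The values in nbr6-t1 (-0.49 ± 0.22, adjusted p = 0.131, edgeR) and taf12-t1 (-0.42 ± 0.23, adjusted p = 0.149, edgeR) against wt did not pass either, and both passed when only the 2 genotypes were fitted (adjusted p = 0.00482 and 0.00866, in that order).

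VTL2 was the least abundant of the VTL genes in root, with 8.59, 2.03, 9.57 and 4.14 TPM in bz1728, 10.4, 11.5, 6.98 and 4.17 TPM in nobiro6, 12.5, 16.9, 10.3 and 14.3 TPM in nbr6-t1 and 13.3, 5.57, 14.1 and 18.0 TPM in taf12-t1, against 16.7, 9.69, 16.1 and 15.9 TPM in wt. Only bz1728 lay below wt without overlap, and by a narrow margin, 9.57 TPM in its highest library against 9.69 TPM in the lowest wt library. It fell, with a log2 fold change of -1.25 ± 0.36 in bz1728 against wt (adjusted p = 0.00823, edgeR). The other values were 0.47 ± 0.41 in nobiro6 against bz1728 (adjusted p = 0.42, edgeR) and -0.78 ± 0.36 in nobiro6 against wt (adjusted p = 0.0815, edgeR), and neither passed. In nbr6-t1 and taf12-t1 against wt, VTL2 read -0.11 ± 0.32 and 0.017 ± 0.33, and neither passed.

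The 3 VTL genes summed to 115 ± 48.0 TPM in bz1728, 265 ± 74.2 TPM in nobiro6, 518 ± 33.3 TPM in nbr6-t1 and 544 ± 60.5 TPM in taf12-t1, against 744 ± 27.4 TPM in wt root (SD, n = 4 each). VTL5 made up 79.3 ± 0.645% of that sum in bz1728, 86.6 ± 2.24% in nobiro6, 91.1 ± 1.10% in nbr6-t1 and 92.2 ± 0.974% in taf12-t1, against 92.0 ± 1.24% in wt. The mean share was lowest in bz1728, where VTL5 stood at 13.4% of its wt mean, VTL1 at 39.5% and VTL2 at 41.7%.

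**Figure D2:**
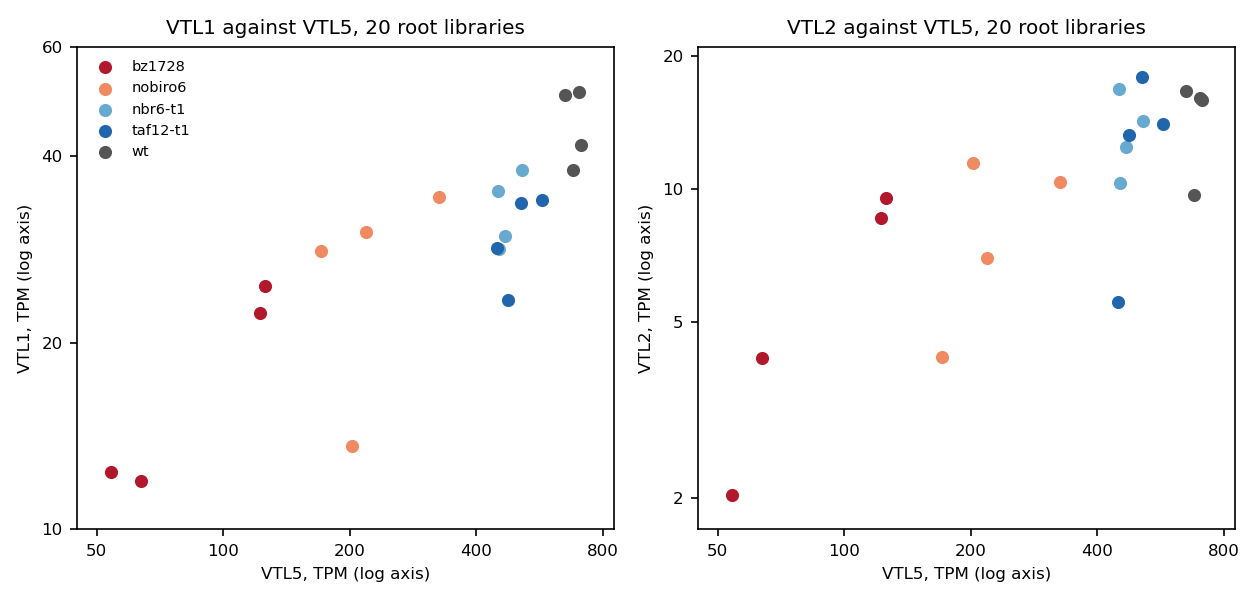
TPM of VTL1 (left) and VTL2 (right) against TPM of VTL5 in the 20 root libraries, on log axes, coloured by genotype. The bz1728 libraries with 54.0 and 63.9 TPM of VTL5 also hold the lowest VTL1 (12.4 and 12.0 TPM) and VTL2 (2.03 and 4.14 TPM) of their group, and the wt libraries lie at the upper right with VTL5 from 649 to 709 TPM.

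VTL5 varied together with VTL1 and with VTL2 between the bz1728 root libraries, while in wt root the libraries ranked differently by VTL5 than by VTL1 or VTL2. Among the bz1728 roots, replicates 2 and 4 were low and replicates 1 and 3 high for all 3 genes. Replicates 2 and 4 were also below replicates 1 and 3 for FER1 and FER2, but not for FER3 or FER4. The green-tissue markers summed to 205, 132, 289.7 and 254 TPM in those 4 bz1728 libraries, and their part in the VTL values was not tested. Over the 20 root libraries the log2 levels of VTL1 and VTL5 had a Pearson r of 0.86, and those of VTL2 and VTL5 an r of 0.81. With each genotype's mean removed these were 0.69 and 0.75, and the spread of VTL5, given above, was widest in bz1728 and narrowest in wt. For VTL1 and VTL2 the r was 0.70, and 0.37 with genotype means removed. The ferritins were less closely tied to VTL5, with r from 0.18 for FER4 to 0.50 for FER3. With genotype means removed, their r with VTL5 ran from 0.050 (FER4) to 0.42 (FER2). Their r with VTL2 then ran from 0.37 (FER3) to 0.48 (FER1), no lower than that of VTL1 with VTL2. With VTL1 it ran from -0.39 (FER4) to 0.32 (FER2). These are descriptions of 20 libraries that share genotypes, depth and normalisation, and carry no test. The genes with a symbol whose root pattern was most like that of VTL5 were bZIP7 (r = 0.972), SP1L5 (r = 0.970) and PME2 (r = 0.965). For VTL1 they were GIK (r = 0.882), CP1 (r = 0.872) and PYL1 (r = 0.864), and for VTL2 ZIP6 (r = 0.835), GA3OX2 (r = 0.828) and RLP56 (r = 0.825).

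FER1 supplied between 58.5 and 73.7% of the ferritin TPM of every root library. It read 134, 108, 134 and 123 TPM in bz1728, 169.5, 174, 209.8 and 135 TPM in nobiro6, 174, 203, 206 and 141 TPM in nbr6-t1 and 171, 154, 146 and 209.6 TPM in taf12-t1, against 134, 112, 169 and 163 TPM in wt. All mutant groups overlapped with wt, and nobiro6 lay just above bz1728 without overlap. No comparison of FER1 passed in root. The log2 fold change against wt was -0.22 ± 0.16 in bz1728, 0.20 ± 0.16 in nobiro6, 0.31 ± 0.16 in nbr6-t1 and 0.38 ± 0.16 in taf12-t1, and in nobiro6 against bz1728 it was 0.42 ± 0.16 (adjusted p = 0.0609, edgeR).

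FER2, the seed form, was a minor ferritin of root but the member that rose in 4 of the 5 root comparisons, 3 of which share the wt libraries. It read 13.2, 6.14, 9.95 and 8.89 TPM in bz1728, 16.4, 16.2, 13.3 and 17.8 TPM in nobiro6, 12.5, 15.8, 15.8 and 14.6 TPM in nbr6-t1 and 15.0, 14.7, 12.8 and 16.6 TPM in taf12-t1, against 6.79, 6.20, 12.9 and 10.8 TPM in wt. In TPM, the nobiro6 libraries lay above all wt libraries, and nbr6-t1 and taf12-t1 overlapped with wt at its highest library. The bz1728 libraries covered the wt range. On the TMM-scaled counts of the test, nobiro6 and nbr6-t1 overlapped with wt and taf12-t1 lay above it. The log2 fold change against wt was 0.85 ± 0.21 in taf12-t1 (adjusted p = 0.00171, edgeR), 0.74 ± 0.21 in nobiro6 (adjusted p = 0.00533, edgeR) and 0.65 ± 0.21 in nbr6-t1 (adjusted p = 0.0237, edgeR). In bz1728 against wt it was 0.067 ± 0.22 (adjusted p = 0.839, edgeR), and in nobiro6 against bz1728 0.67 ± 0.21 (adjusted p = 0.015, edgeR). The nbr6-t1 call did not pass without wt replicate 1 or 2 or without nbr6-t1 replicate 2 or 3 (adjusted p from 0.0682 to 0.135), and the nobiro6 against bz1728 call did not pass without bz1728 replicate 2 (log2 fold change 0.47, adjusted p = 0.101).

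Seed storage transcripts were present in some root libraries, and their part in the FER2 levels was not tested. The 7 seed markers summed to 1.70, 2.04, 13.1 and 61.1 TPM in bz1728, 0, 0, 21.0 and 0 TPM in nobiro6, 101, 1.11, 0 and 5.49 TPM in nbr6-t1 and 0.757, 1.63, 0.252 and 17.5 TPM in taf12-t1, against 0.725, 13.1, 4.74 and 0 TPM in wt. SESA2 and SESA3 were at 0 in all 20 root libraries. The nbr6-t1 library with the highest sum had the lowest FER2 of its group, 12.5 TPM, and 3 of the 4 nobiro6 libraries, with 16.2 to 17.8 TPM of FER2, had none of the markers. In taf12-t1 the library with the highest sum, 17.5 TPM, also had the highest FER2 of its group, 16.6 TPM. FER2 lies on chromosome 3, 30 protein-coding genes from BZIP28 and 114 from TAF12 in the reference annotation, and FER4 on chromosome 2, 73 from BZIP17. The part of these positions in the values was not tested.

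FER3 was steady in root except in taf12-t1. It read 41.3, 46.2, 52.0 and 40.7 TPM in bz1728, 45.3, 53.3, 48.9 and 45.3 TPM in nobiro6, 48.7, 45.5, 43.2 and 52.2 TPM in nbr6-t1 and 62.5, 62.1, 76.5 and 78.7 TPM in taf12-t1, against 52.0, 51.5, 48.3 and 55.6 TPM in wt. The taf12-t1 libraries lay above all other root libraries, and the remaining groups overlapped. FER3 rose by 0.58 ± 0.092 on the log2 scale in taf12-t1 against wt (adjusted p = 4.83e-06, edgeR), and its log2 fold changes were -0.21 ± 0.093, -0.16 ± 0.10 and -0.17 ± 0.095 in bz1728, nobiro6 and nbr6-t1 against wt, none of which passed. The root genes of closest pattern were GHR1 (r = 0.921), NPX1 (r = 0.917) and PAB2 (r = 0.911).

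FER4 read 12.2, 14.1, 13.7 and 12.3 TPM in bz1728, 15.0, 19.8, 12.8 and 12.2 TPM in nobiro6, 15.6, 18.0, 16.0 and 19.2 TPM in nbr6-t1 and 15.5, 11.3, 14.0 and 13.7 TPM in taf12-t1, against 10.9, 12.4, 14.0 and 12.4 TPM in wt. The nbr6-t1 libraries lay above all wt libraries, with a log2 fold change of 0.42 ± 0.15 (adjusted p = 0.0439, edgeR). This call did not pass in 7 of the 8 fits that left out 1 of the libraries compared (adjusted p from 0.0505 to 0.123) and passed only without wt replicate 3 (0.0419). The values against wt in bz1728, nobiro6 and taf12-t1, 0.071 ± 0.15, 0.24 ± 0.16 and 0.28 ± 0.16, did not pass. The 4 ferritins together summed to 192 ± 15.6 TPM in bz1728, 251 ± 31.4 TPM in nobiro6, 261 ± 26.5 TPM in nbr6-t1 and 268 ± 34.6 TPM in taf12-t1, against 218 ± 30.3 TPM in wt root (SD, n = 4 each).

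**Figure D3:**
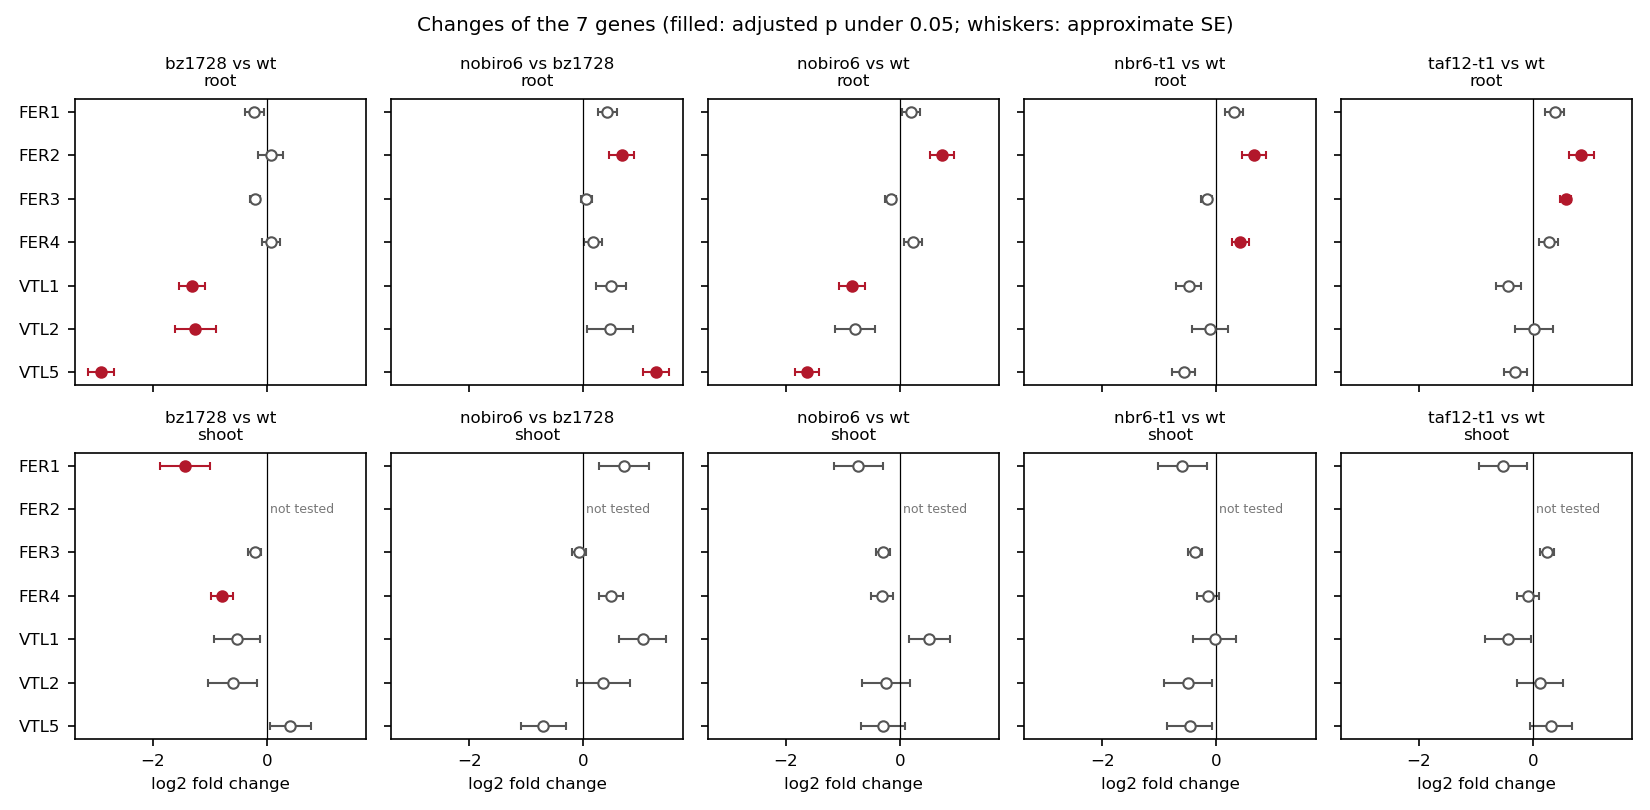
Log2 fold change (x axis) of each member (rows) in 5 comparisons in root (upper panels) and in shoot (lower panels), with whiskers for the approximate standard error and filled red points for an adjusted p under 0.05 in edgeR. In root the 3 VTL genes lie left of 0 in bz1728 against wt, with VTL5 at -2.90, and in shoot the filled points are FER1 (-1.44) and FER4 (-0.78) in bz1728 against wt.

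In shoot, FER4 and FER1 were the members that passed in bz1728 against wt, FER1 in 7 of its 14 alternative fits only, and the VTL genes were low in every library. They fell, 2 of the 6 members tested there (8.4% of the 17382 shoot genes tested rose and 9.42% fell), and FER3 did not pass (-0.22 ± 0.12, adjusted p = 0.241, edgeR). The median log2 fold change of the 6 members was -0.56 in bz1728 against wt, 0.42 in nobiro6 against bz1728, -0.29 in nobiro6, -0.42 in nbr6-t1 and 0.022 in taf12-t1 against wt, where the medians over all shoot genes ran from -0.021 to 0.017. No member passed in nobiro6 against bz1728 (21% of genes), nobiro6 against wt (12.1%), nbr6-t1 against wt (7.5%) or taf12-t1 against wt (40.6%) in edgeR. At an unadjusted p under 0.05, edgeR gave FER4 and VTL1 in nobiro6 against bz1728, FER3 in nobiro6 against wt and FER3 in nbr6-t1 against wt, and no member in taf12-t1 against wt. The share of all genes at that cut was not counted. DESeq2 called no member in these 4 comparisons, where it called 3565, 2065, 1367 and 6700 of 17378 genes, in that order. FER2 had too few counts to be tested, 15 to 40 per group, and 0.232 to 2.53 TPM in single libraries.

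FER1 in shoot read 99.9, 109, 116 and 56.2 TPM in bz1728, 287, 109.7, 120.1 and 100.1 TPM in nobiro6, 152, 109.9, 228 and 162 TPM in nbr6-t1 and 159, 172, 131 and 163 TPM in taf12-t1, against 148, 117, 479.8 and 179 TPM in wt. All bz1728 libraries lay below all wt libraries, the closest being 116 and 117 TPM, and the third wt library stood far above every other. The log2 fold change in bz1728 against wt was -1.44 ± 0.44 (adjusted p = 0.0332, edgeR). Without wt replicate 3 it was -0.77 (adjusted p = 0.161), without any 1 of the bz1728 libraries the adjusted p was 0.0551 to 0.0939, and with only the 2 genotypes fitted it was 0.135. In nobiro6 against bz1728 FER1 read 0.71 ± 0.44 (adjusted p = 0.288, edgeR), with 1 nobiro6 library at 287 TPM and the others at 100.1 to 120.1 TPM.

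FER4 gave the firmer shoot result. It read 30.1, 23.7, 29.3 and 21.8 TPM in bz1728, 43.9, 40.7, 38.5 and 21.7 TPM in nobiro6, 33.5, 31.9, 47.9 and 41.8 TPM in nbr6-t1 and 42.4, 33.9, 35.4 and 37.4 TPM in taf12-t1, against 29.9, 35.8, 52.5 and 44.7 TPM in wt. The highest bz1728 library just met the lowest wt library, and the others were apart. FER4 fell, with a log2 fold change of -0.78 ± 0.20 in bz1728 against wt (adjusted p = 0.0103, edgeR), and passed in each of the 14 alternative fits (adjusted p from 0.000919 to 0.0431). For nobiro6 against bz1728 it was 0.48 ± 0.21 and did not pass (adjusted p = 0.114, edgeR).

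FER3 in shoot read 45.5, 51.3, 47.2 and 43.2 TPM in bz1728, 52.5, 42.6, 43.3 and 37.6 TPM in nobiro6, 40.4, 38.0, 38.9 and 43.3 TPM in nbr6-t1 and 58.4, 52.4, 51.6 and 63.2 TPM in taf12-t1, against 49.7, 38.9, 62.3 and 45.9 TPM in wt, with every group overlapping wt. Its log2 fold change was -0.36 ± 0.12 in nbr6-t1 (adjusted p = 0.071, edgeR) and 0.24 ± 0.12 in taf12-t1 (adjusted p = 0.108, edgeR). FER1 and FER4 varied together over the 20 shoot libraries (r = 0.81, and 0.67 with genotype means removed), a description without a test. For FER1 with FER3 these values were 0.55 and 0.74, and for FER3 with FER4 0.45 and 0.51. Replicate 3 of wt and replicate 1 of nobiro6 were the highest of their groups for FER1, FER3 and FER4 alike. The named genes whose shoot pattern was most like that of FER1 were GSTU4 (r = 0.827), FLOT1 (r = 0.809) and PAD3 (r = 0.796), and for FER4 they were RLP23 (r = 0.852), APS1 (r = 0.836) and BCB (r = 0.809).

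**Figure D4:**
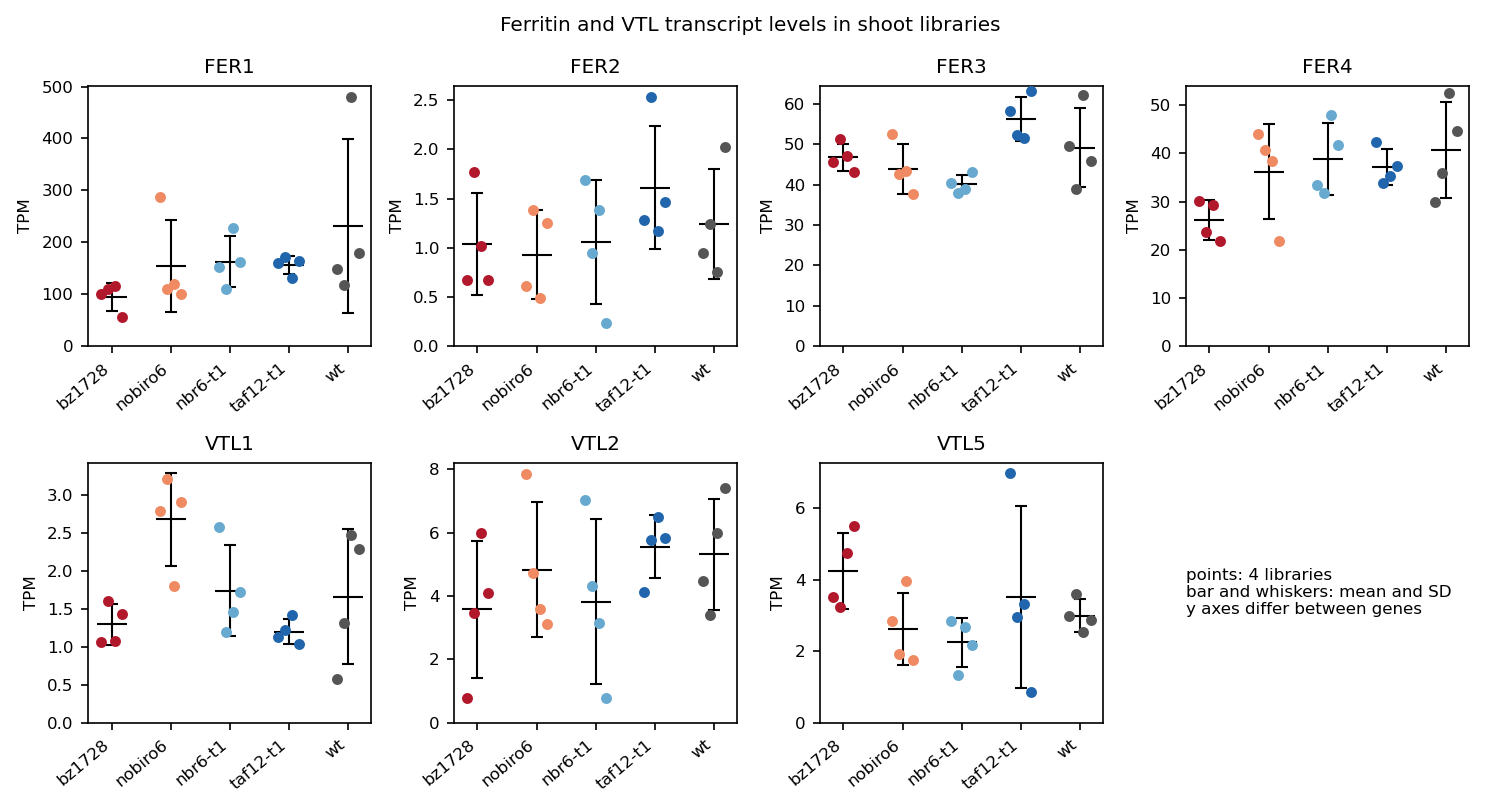
TPM of each member in shoot (linear axes from 0, a scale per gene) for the mutant lines and, at the right, wt; points are the 4 libraries, bars the mean and whiskers the SD. FER1 reaches 480 TPM in 1 wt library, and no VTL gene exceeds 7.86 TPM.

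The VTL genes had 0.572 to 7.86 TPM in single shoot libraries. VTL5 read 3.51, 3.24, 4.74 and 5.51 TPM in bz1728, against 3.00, 3.60, 2.52 and 2.86 TPM in wt, a log2 fold change of 0.41 ± 0.36 (adjusted p = 0.483, edgeR). In the same comparison VTL1 read -0.53 ± 0.40 (adjusted p = 0.41, edgeR) and VTL2 -0.60 ± 0.43 (adjusted p = 0.375, edgeR), so none of the 3 passed. VTL1 had 2.79, 3.21, 1.79 and 2.90 TPM in nobiro6, against 1.06, 1.61, 1.08 and 1.43 TPM in bz1728. The nobiro6 libraries were higher without overlap, but the difference of 1.04 ± 0.42 did not pass (adjusted p = 0.0773, edgeR) with 42 and 21 counts in the groups. VTL2 had 61 to 161 counts per group and its values overlapped in every comparison.

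Root and shoot were then set against each other within the model of all 40 libraries, which tests whether a genotype difference is unequal between the tissues. For bz1728 against wt, 2 of the 7 members passed, 1 higher and 1 lower (12% of 20015 genes were higher and 10.9% lower). VTL5 differed by -3.29 ± 0.54 (root minus shoot, adjusted p = 3.02e-05, edgeR), having passed in root and not in shoot, and FER4 by 0.90 ± 0.26 (adjusted p = 0.00932, edgeR), having passed in shoot and not in root. FER1 read 1.27 ± 0.47 and did not pass (adjusted p = 0.0517, edgeR). For nobiro6 against bz1728, VTL5 was the 1 member that passed, as higher (8.74% of genes were higher and 7.1% lower), with a difference of 2.02 ± 0.59 (adjusted p = 0.0171, edgeR). That call did not pass with only the groups compared (adjusted p = 0.112) or without bz1728 shoot replicate 4 (0.0579). No member passed for nobiro6 (12.9%), nbr6-t1 (2.4%) or taf12-t1 (20.3%) against wt in edgeR. At an unadjusted p under 0.05, 5 members did in nobiro6, 2 in nbr6-t1 and 1 in taf12-t1. The share of all genes at that cut was not counted, so these counts are not a result about the set. DESeq2 called 2, 0 and 0 members in these lines. Over all genes it called 2476 of 20014 in nobiro6, 587 of 19237 in nbr6-t1 and 4084 of 20014 in taf12-t1. VTL1 in nobiro6 had the lowest adjusted p in edgeR, 0.0534 (-1.25 ± 0.44).

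The remaining iron genes of root were read as lists, as a setting for these values. Among 16 further genes of iron storage and intracellular iron transport, 9 were abundant enough to be tested in root. VIT1 was not, nor were the VIT family loci AT3G43630 and AT3G43660. In bz1728 against wt, 3 of the 9 rose and 3 fell, where 18.2% of all root genes rose and 20.7% fell. FPN1 and FPN2, relatives of animal ferroportin, fell, with log2 fold changes of -1.95 ± 0.26 and -1.10 ± 0.22, and rises were seen for YSL3 (0.63 ± 0.073), a transporter of metal chelates, and for NRAMP3 (0.53 ± 0.11), which releases iron from the vacuole. In nobiro6 against bz1728, 1 rose and 4 fell (12.8% and 18.9% of all genes), with FPN2 at -2.57 ± 0.37 and NRAMP3 at -0.43 ± 0.11, so VTL5 and FPN2 moved in opposite directions there. In nbr6-t1 against wt, FPN2 was the 1 gene that passed (13.5% of all genes fell), at -2.04 ± 0.25.

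Of 13 regulators known to act on ferritin or VTL genes or on the proteins that control them, all were tested in root. In bz1728 against wt, 1 rose and 5 fell, against the same 18.2% and 20.7% of all root genes. The log2 fold change was -2.24 ± 0.21 for BHLH11, a repressor of iron uptake genes, -0.41 ± 0.075 for ILR3, -0.29 ± 0.060 for BHLH115, an activator of the iron deficiency response, and 0.46 ± 0.15 for PYE, the 1 that rose. Between nobiro6 and bz1728, 2 were higher in nobiro6 and 7 lower (12.8% and 18.9% of all genes), with BHLH11 at 1.77 ± 0.23 and BHLH115 at -0.56 ± 0.063. In nbr6-t1 against wt 3 fell and in taf12-t1 against wt 6 fell, with BHLH115 at -0.50 ± 0.061 and -0.47 ± 0.062, and none rose in either, where 13.5% of all genes fell in nbr6-t1 and 19.8% in taf12-t1.

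Most genes of the iron deficiency response fell in the roots of nobiro6 and nbr6-t1. Of 14 tested in root, 5 rose and 3 fell in bz1728 against wt, beside 18.2% and 20.7% of all genes, with OPT3, a phloem iron transporter, at 1.13 ± 0.083 and the uptake regulator FIT at -2.70 ± 0.19. Against bz1728, 13 fell in nobiro6 and FIT alone rose (18.9% of all genes fell and 12.8% rose), and the median of the list was -2.56. In nobiro6 against wt 13 fell and none rose (median -2.24, with 23.9% of all genes lower). In nbr6-t1 against wt 11 fell and none rose (median -1.35, with 13.5% of all genes lower), and in taf12-t1 against wt 1 rose and 4 fell (median -0.30, with 19.5% of all genes higher and 19.8% lower). OPT3 read -2.57 ± 0.10 in nobiro6 against bz1728 and -0.84 ± 0.10 in nbr6-t1 against wt. In shoot, 8 of 11 rose and none fell in bz1728 against wt (median 1.65, with 8.4% of all shoot genes higher), and none rose and 10 fell in nobiro6 against bz1728 (median -2.30, with 21% of genes called in either direction). Phosphate starvation genes, listed because FER1 is a known target of their regulator PHR1, rose 7 of 7 in bz1728 shoot against wt (median 3.04) and 7 of 7 in nobiro6 shoot against wt (median 2.40), with 8.4% of shoot genes higher in bz1728 and 12.1% called in either direction in nobiro6. FER1 read -0.73 ± 0.43 in nobiro6 shoot against wt and did not pass (adjusted p = 0.308, edgeR), and without wt replicate 3 it read -0.77 in bz1728 and -0.059 in nobiro6, neither of which passed. Against wt, phosphate genes also rose in bz1728 root (4 of 5, median 1.01) and taf12-t1 root (3 of 5, median 0.71). In taf12-t1 shoot 3 of 7 rose (median 1.10). None of the list fell in these comparisons, and FER1 passed in none of them. Over all genes, 18.2% rose in bz1728 root and 19.5% in taf12-t1 root, and 40.6% were called in either direction in taf12-t1 shoot.

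**Figure D5:**
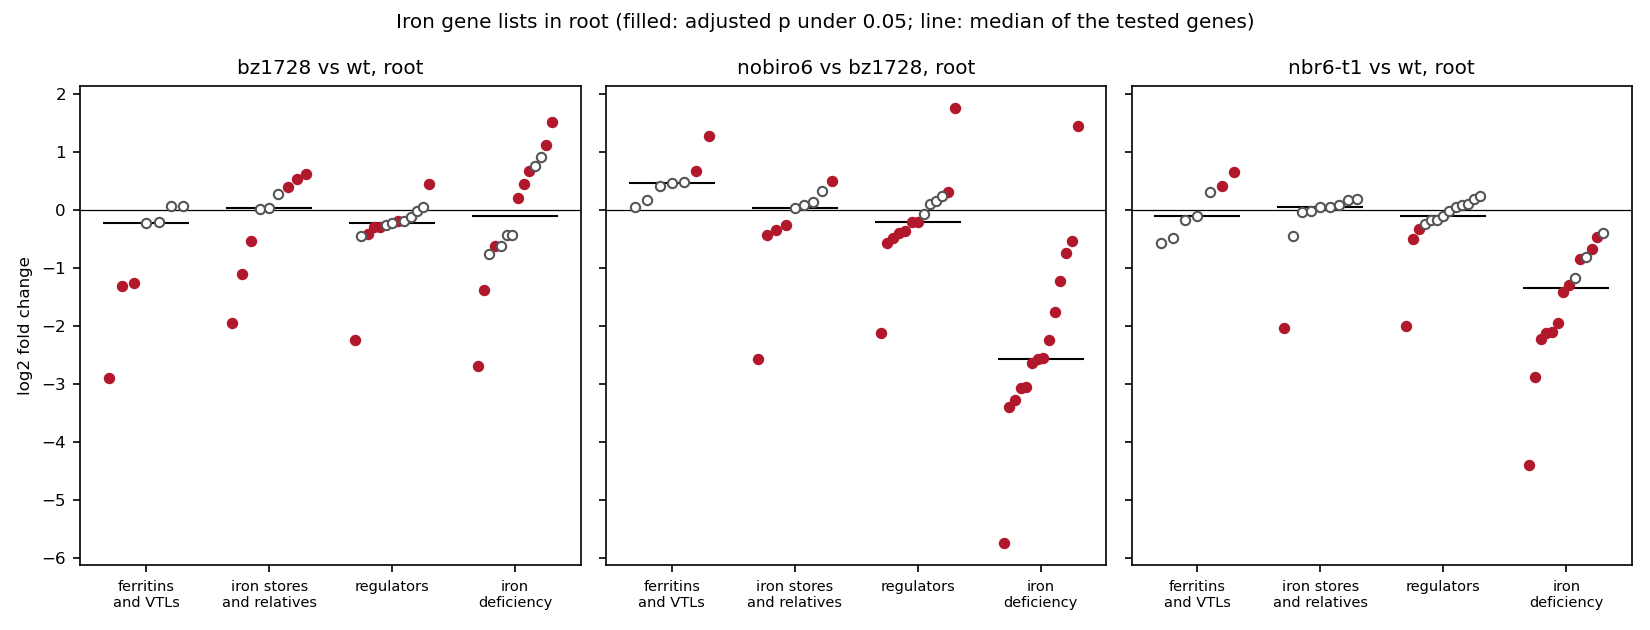
Log2 fold change (y axis) in root of the members and of the 3 further iron lists (x axis), for bz1728 against wt, nobiro6 against bz1728 and nbr6-t1 against wt; each point is a tested gene, filled red for an adjusted p under 0.05 in edgeR, and lines are list medians. In nobiro6 against bz1728 the iron deficiency genes have a median of -2.56, while the members have a median of 0.47.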

How the data were processed

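The authors used Trimmomatic 0.39 and kallisto 0.44.0, per the submitters' processing notes. The deposited expected counts are estimated reads per transcript, 1 transcript per locus, unscaled. The deposited TPM values are scaled for effective length and library total. No genome build or annotation is named by these notes or the file headers, and neither coordinates nor sequences are printed. Symbols and shared 31-base words came from a RefSeq annotation (27445 of 27655 loci matched).

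The expected counts, rounded to whole numbers, entered edgeR 4.0.16 (R 4.3.3) with TMM factors, filterByExpr (count 10, total 15) and robust quasi-likelihood F-tests, two-sided. A first fit held the 20 root libraries, another the 20 shoot libraries, and the last all 40 for comparisons between tissues. A gene was called at an adjusted p under 0.05 (Benjamini-Hochberg, over all genes tested). Standard errors are the absolute log2 fold change over the square root of F. Text levels are TPM, and overlaps between groups are of TPM unless the TMM-scaled counts are named. The test was also run on simulated counts whose spread did not differ between genotypes. That of VTL5 in root did, so the simulation does not cover such genes.

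The named genes are the 7 members, the 4 mutated genes, up to 4 genes per list with the smallest adjusted p, and the 3 genes with a symbol of highest r over the log2 CPM of 20 libraries; FIT in nobiro6 against bz1728 and seed markers at 0 were singled out after their values were seen. The members and lists were chosen with earlier results of these data known. Alternatives were RLE size factors, no filter, DESeq2 1.42.0, only the groups compared, limma 3.58.1 on log2(TPM + 1), a replicate block and leaving out each library. Same-numbered libraries did not deviate together, so the numbers were not taken as pairs. No pair of replicates was close enough to be 1 library under 2 names.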

Additional observations from a re-analysis of the deposited data

Results flagged for a closer look

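In 70 groups of 4 TPM values, 3 had a value farther from the rest than Dixon's 95% limit, and chance gives about 1 in 20 groups. FER1 was at 287 TPM in nobiro6 shoot replicate 1, with the other libraries of that group at 100.1 to 120.1 TPM. FER1 was at 480 TPM in wt shoot replicate 3, with the others at 117 to 179 TPM. VTL2 was at 9.69 TPM in wt root replicate 2, with the others at 15.9 to 16.7 TPM.

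A genotype difference was unequal between root and shoot, by a test of that difference over all 40 libraries, in 3 cases. For VTL5, bz1728 against wt differed by -3.29 (root minus shoot, adjusted p = 3.02e-05, edgeR). For FER4 it differed by 0.90 (adjusted p = 0.00932, edgeR). For VTL5, nobiro6 against bz1728 differed by 2.02 (adjusted p = 0.0171, edgeR), where the shoot groups held 38 and 65 counts.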

How the results depend on the processing

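Over the log2 fold changes of members that passed, 320 of 346 alternative fits kept direction and call, 25 lost the call and 1 reversed; of 768 alternative fits of members that did not pass, 38 passed and 24 reversed sign. The reversal of a called value was FER3 in wt root against shoot (0.093 on log2(TPM + 1)); there the median of all genes moved by 0.93. Members that did not pass reversed as follows: VTL2 in taf12-t1 root against wt (-0.0089 with a replicate block, -0.031 in DESeq2, -0.26 on log2(TPM + 1)) and VTL1 in nbr6-t1 shoot against wt (0.0070 with the block, 0.086 on log2(TPM + 1)). Leaving out 1 library gave ranges that span 0 for FER2 in bz1728 root against wt (-0.17 to 0.27), in nobiro6 against bz1728 for FER3 root (-0.00084 to 0.12), FER4 root (-0.015 to 0.24) and VTL2 shoot (-0.0023 to 0.73), in taf12-t1 against wt for VTL2 root (-0.23 to 0.24) and, in shoot, FER1 (-0.76 to 0.14), FER4 (-0.20 to 0.087), VTL2 (-0.054 to 0.31) and VTL5 (-0.23 to 0.58), and in nbr6-t1 shoot against wt for FER1 (-0.82 to 0.078), FER4 (-0.27 to 0.019) and VTL1 (-0.29 to 0.29). Counts of members called moved as follows, and the cause was not tested. In nbr6-t1 root against wt (2) it was 1 without a filter, 4 with only the groups compared and 1 in DESeq2, and 0 to 2 leaving out a library. In taf12-t1 root against wt (2) it was 4 with only the groups compared, and 2 to 3. In bz1728 shoot against wt (2) it was 1 with only the groups compared and 1 on log2(TPM + 1), and 1 to 3. In nobiro6 against bz1728 it was 1 to 3 in root (2), and in shoot (0) 1 on log2(TPM + 1), and 0 to 1. In bz1728 and nobiro6 root against wt (3 each) it was 3 to 4. In nobiro6, nbr6-t1 and taf12-t1 shoot against wt (0 each) it was 0 to 1. Of the root minus shoot differences, nobiro6 against bz1728 (1) had 0 with only the groups compared, and 0 to 1; nobiro6 against wt (0) had 1 with RLE factors, 1 with the replicate block, 1 with only the groups compared, 2 in DESeq2 and 3 on log2(TPM + 1), and 0 to 1; bz1728 against wt (2) had 2 to 3, and taf12-t1 against wt (0) 0 to 1. Same-numbered libraries were not taken as pairs: in no comparison did all 4 pairs have a correlation over 0.1. All 4 were positive but small in nobiro6 against wt root (0.022 to 0.057) and nobiro6 against bz1728 root (0.0046 to 0.082). So were those of nobiro6 root with nobiro6 shoot (0.014 to 0.037), and this cut cannot exclude a weak pairing. Under the replicate block FER4 in nbr6-t1 root did not pass (adjusted p = 0.0501) and VTL5 did (0.0489); the block is not read as pairing. VTL1 in shoot missed the count filter with only the groups compared in 4 comparisons, which have no value there. Depth limits the VTL genes and FER2 in shoot, where a group held 15 to 161 counts.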
